A study of Mus musculus with 12 samples.

Results

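Clec4d, Clec4e, Clec4n, Clec5a, Clec7a, Trem1, Trem3 and Cd14 encode 8 surface receptors by which neutrophils, monocytes and macrophages sense microbes and injured cells. Their probes were found by gene name, and the set of genes was chosen with earlier results of these data known. They are 8 of 37074 gene names on the array and were read by 13 of its 56605 non-control probes, all of which were described. RNA came from the cecum of C57BL/6 mice, in 4 groups of 3 samples each, with no transgene in any group and no age given in the labels. The sham control was taken at 0 h from a sham operation. The other 3 groups were taken 3, 12 or 72 h from cauterization of the cecum with bipolar forceps, after a midline incision under pentobarbital, an injury used as a model of postsurgical adhesion. Since the sham samples had no interval after surgery, the effect of anesthesia and incision over time and the effect of cauterization cannot be told apart in any comparison with sham.

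Most of these receptors lack a signaling tail of their own. Clec4d (MCL), Clec4e (Mincle) and Clec4n (Dectin-2) are C-type lectins that bind glycolipids and mannans and pair with the Fc receptor gamma chain, encoded by Fcer1g. Clec5a (MDL-1), Trem1 and Trem3 pair with DAP12, encoded by Tyrobp, whereas Clec7a (Dectin-1), the beta-glucan receptor, carries its own activating motif. All of these routes lead to the kinase Syk and, for the lectins, to the adaptor CARD9. Cd14 is a lipid-anchored coreceptor that hands bacterial lipopolysaccharide to TLR4 and its partner MD-2. In the gut these receptors are known mainly from the phagocytes that enter injured or infected tissue.

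The probe sequences are shown because the reading of Trem1 turned on which of its probes was used. Each line gives the first 30 bases of a 60-base probe as laid out on the array, written 5′ to 3′ in lower case, except that the last line gives bases 20 to 49. Capitals mark a stretch of repeated triplets.
Clec4d: aggatttgtaaattacctggaataacattc
Clec4e: actggatttcacctgtacttgtatctactg
Clec4n: gtcttgccctggtttctttctatgaactgc
Clec7a: ttaataccacccttatttccagtgtggact
Clec5a: taccttggctgttatctcaagaaggtacaa
Trem3: tgtagaaggaggctcatgagacatcagtga
Trem1, dim probe: gtgcagatgctgttcatctcagtaggtttg
Trem1, bright probe: GTTGTTGTTGTTGTTGTTGTTGTTGTTGTT
The bright Trem1 probe held a run of 39 bases in which each base repeated the base 3 positions before it, whereas the longest such run was 7 bases among the other probes shown here and the dimmer probes of Clec5a and Clec7a. Only 9 of 56605 probes on the array, or 0.0159%, held a run of 39 bases or more.

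The probe coordinates in the scanner files were those of mm9, and exons were not assigned because no annotation of that build was used here. Clec4n (chr6:123196969-123197028), Clec4d (chr6:123224788-123224847) and Clec4e (chr6:123232878-123232937) are neighbors, with their probe positions lying within 35.9 kb of each other. Clec7a (chr6:129411739-129411798) and Clec5a (chr6:40527017-40527076) lie elsewhere on chromosome 6. The bright probe of Trem1 (chr17:48385849-48385908) lay 12.1 kb from the probe of Trem3 (chr17:48397990-48398049). Clec4d, Clec4n, Trem1 and Trem3 were read on the plus strand and Clec4e, Clec5a and Clec7a on the minus strand.

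The 250 bases upstream of the transcription start were compared because several of these genes rose together. They were taken from RefSeq (GRCm38.p6), which matched 5 of the genes, and are written 5′ to 3′ along the strand of the gene. Capitals mark matches on either strand to PU.1 (GAGGAA), C/EBP (TTNNGNAA), AP-1 (TGANTCA), STAT (TTCNNNGAA) or the NF-kB consensus of 10 letters, and matches can overlap.
Clec4d, plus strand, chr6:123261857-123262106: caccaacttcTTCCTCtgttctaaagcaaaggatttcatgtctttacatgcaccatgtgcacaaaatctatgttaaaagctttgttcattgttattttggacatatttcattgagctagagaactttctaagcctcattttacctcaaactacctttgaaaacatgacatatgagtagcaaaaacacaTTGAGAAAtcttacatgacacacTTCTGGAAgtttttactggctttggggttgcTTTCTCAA
Clec4e, minus strand, chr6:123289872-123290121: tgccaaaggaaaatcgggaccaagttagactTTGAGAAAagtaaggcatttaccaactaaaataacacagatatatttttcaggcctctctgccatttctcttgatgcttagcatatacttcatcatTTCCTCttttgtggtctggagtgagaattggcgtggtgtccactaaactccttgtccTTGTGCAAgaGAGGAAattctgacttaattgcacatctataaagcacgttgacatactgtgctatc
Clec5a, minus strand, chr6:40585806-40586055: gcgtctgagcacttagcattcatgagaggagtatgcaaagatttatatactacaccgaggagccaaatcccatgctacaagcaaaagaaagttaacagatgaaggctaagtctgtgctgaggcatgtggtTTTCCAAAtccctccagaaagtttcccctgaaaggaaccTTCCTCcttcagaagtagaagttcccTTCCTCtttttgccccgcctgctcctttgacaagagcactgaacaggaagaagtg
Clec7a, minus strand, chr6:129472780-129473029: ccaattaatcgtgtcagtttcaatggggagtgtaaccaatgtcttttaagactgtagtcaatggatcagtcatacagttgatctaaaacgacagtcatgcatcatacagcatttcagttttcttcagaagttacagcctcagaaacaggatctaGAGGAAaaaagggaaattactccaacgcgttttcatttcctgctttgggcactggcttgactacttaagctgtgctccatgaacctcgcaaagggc
Trem1, plus strand, chr17:48232489-48232738: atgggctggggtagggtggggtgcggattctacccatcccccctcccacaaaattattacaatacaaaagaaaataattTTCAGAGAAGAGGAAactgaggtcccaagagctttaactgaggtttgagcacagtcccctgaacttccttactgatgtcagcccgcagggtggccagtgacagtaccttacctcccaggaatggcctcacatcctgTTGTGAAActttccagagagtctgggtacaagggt
PU.1 is a transcription factor of the myeloid lineage, and its letters were present in all 5 windows and in 23.3% of 32851 promoter windows of the same length. The C/EBP letters matched 3 times upstream of Clec4d, 2 times upstream of Clec4e and 1 time each upstream of Clec5a and Trem1, and did not match upstream of Clec7a. They were found in 36.8% of all windows. The STAT letters matched only upstream of Trem1, at a background of 7.02% of windows. AP-1 and NF-kB letters, found in 6.75% and 7.25% of all windows, were not in these 5 windows.

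Between 60.2% and 65.2% of probes were well above background on each of the 12 arrays, a flag set by the scanner software, and no spot was saturated. The sham and 3 h arrays lay on a first slide, the 72 h arrays on a second slide, and the 12 h arrays were split with replicates 1 and 2 on the first and replicate 3 on the second. The slide and the 72 h group can therefore be separated only through 1 array. The labels call all animals male, but the probe of Xist was well above background on 12 arrays. Of genes on the Y chromosome, Ddx3y and Eif2s3y passed on 0 arrays, Uty on 1, and the brightest probe of Kdm5d on 12. Values below are on a log2 scale, with each array's 75th percentile of intensity set to 0. A gene with several probes was represented by its brightest, and a gene was called higher or lower where its fold change exceeded 2 and its adjusted p, from limma, was below 0.05. The replicates are described as biological, but no source used here states that they came from separate animals, and the p-values measure only the spread between these samples. In bulk tissue, fewer cells of a type and less RNA per cell cannot be told apart.

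For each of the 8 genes, by its brightest probe, every array after cauterization read above every sham array, as was the case for 4.25% of all genes. Overlap between other groups is given below as a description only, since its share over all genes was not computed. None of the 8 was called lower than sham, whereas the share of all genes called lower was 4.11%, 4.96% and 4.30% in time order. At 3 h 6 of the 8 genes were called higher, against a background of 3.26% of all genes. At 12 h all 8 were called higher, where the background was 4.10%, and at 72 h 7 of 8, where it was 4.55%. The median log2 fold change of the 8 genes was 2.73, 4.33 and 3.08 at these times, while that of all genes was 0.08, -0.01 and -0.14. With the genes that were dim in sham set to their lower bound, these medians were 2.69, 4.33 and 3.08.

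**Figure D1:**
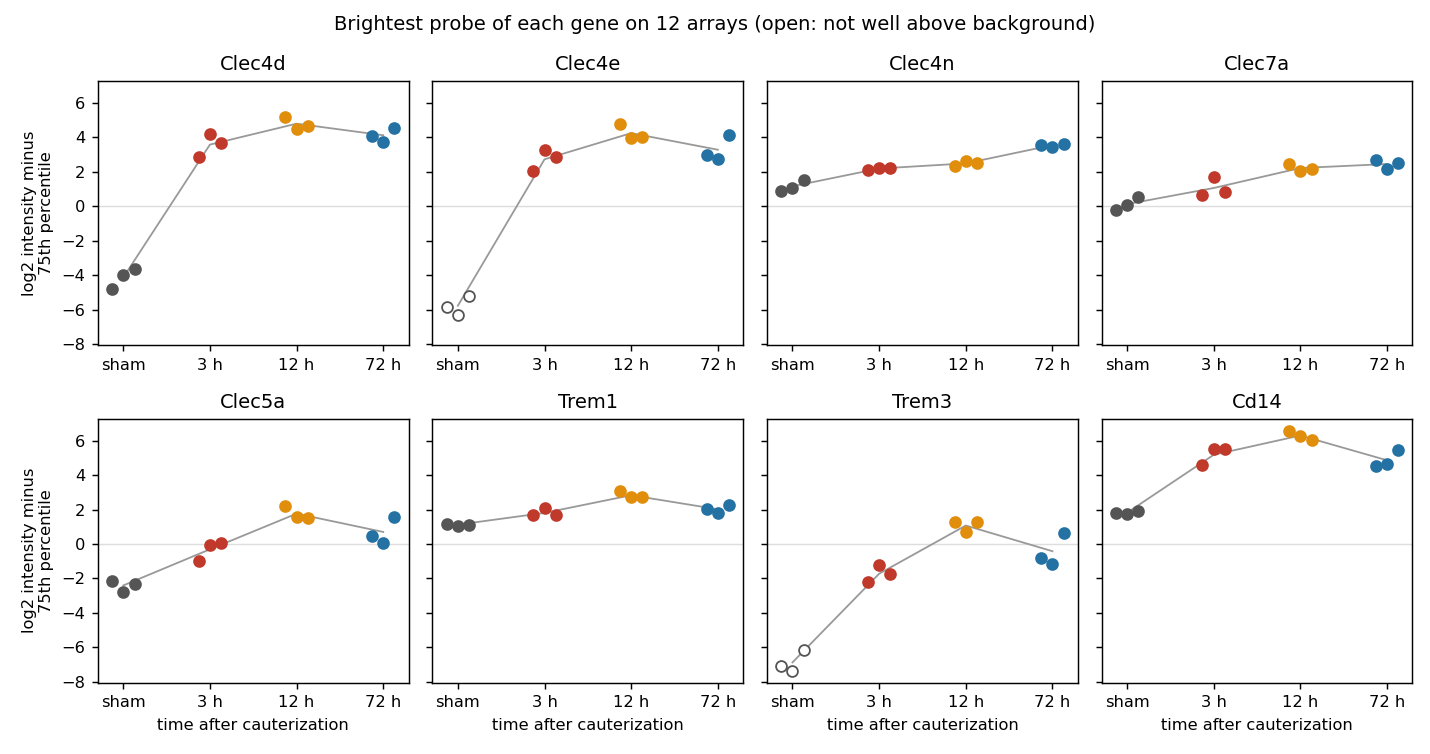
Normalized log2 intensity (vertical axis, relative to the array's 75th percentile) of the brightest probe of each gene on the 12 arrays, by group, with a line through the 4 group means. Open circles mark arrays on which the probe was not well above background, which were the 3 sham arrays of Clec4e and of Trem3. The 3 sham arrays lie below all 9 arrays from cauterized ceca in each of the 8 panels, as they do for 4.25% of all genes.

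The FcRγ-coupled lectins Clec4d and Clec4e showed the largest fitted changes of the 8 genes by their brightest probes. Clec4d read -4.79, -3.97 and -3.66 on the sham arrays, 2.87, 4.19 and 3.69 on the 3 h arrays, 5.20, 4.51 and 4.69 on the 12 h arrays, and 4.11, 3.73 and 4.54 on the 72 h arrays. All 9 arrays after cauterization thus lay more than 6 log2 units above all sham arrays, whereas the 72 h arrays overlapped those of 3 h and 12 h. In the limma fit the log2 fold change against sham, with a standard error of 0.38, was 7.73 for 3 h (adjusted p = 8.31e-06), 8.94 for 12 h (adjusted p = 2.27e-06) and 8.27 for 72 h (adjusted p = 4.62e-06). This was 212-fold at 3 h (95% interval 117 to 383), 491-fold at 12 h and 308-fold at 72 h. The interval covers only the spread between arrays. The sham readings lay near the lowest signal well above background, which averaged -5.02 over the sham arrays. With normexp background correction the log2 fold change was smaller, at 5.26, 6.48 and 5.91 in time order.

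Clec4e was not well above background on any sham array, where it read -5.83, -6.31 and -5.19. It read 2.04, 3.29 and 2.86 on the 3 h arrays, 4.79, 3.96 and 4.0 on the 12 h arrays, and 2.96, 2.76 and 4.14 on the 72 h arrays, and was well above background on all 9 of these arrays. Measured against the lowest signal that was above background, Clec4e was at least 215-fold higher at 3 h, at least 616-fold at 12 h and at least 316-fold at 72 h. These were the measured arrays against a bound, set for each sham array at the higher of its lowest signal among probes well above background and the probe's own signal, and adjusted p from limma was 8.38e-06, 2.77e-06 and 6.11e-06. The rise of Clec4e from 3 h to 12 h (1.52 on the log2 scale, adjusted p = 0.0673) did not pass the threshold, nor did that of Clec4d (1.21, adjusted p = 0.0838). The 3 h and 12 h arrays of both genes did not overlap, but for how many of all genes this held was not computed. With normexp background correction the log2 fold change of Clec4e was 4.58, 6.15 and 5.21 in time order. These values lay below the log2 bounds of 7.75, 9.27 and 8.31, so the bounds hold only for the background subtraction used here. With normexp Clec4d and Clec4e were called at all 3 times.

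Clec4n, the third lectin of this neighborhood, changed less and was highest at 72 h. It read 0.88, 1.08 and 1.53 on the sham arrays, 2.12, 2.25 and 2.21 on the 3 h arrays, 2.32, 2.63 and 2.53 on the 12 h arrays, and 3.57, 3.45 and 3.64 on the 72 h arrays. No 2 groups overlapped. In the limma fit the log2 fold change against sham, with a standard error of 0.16, was 1.03 for 3 h (adjusted p = 0.00207), 1.33 for 12 h (adjusted p = 0.00038) and 2.39 for 72 h (adjusted p = 2.03e-05), that is 2.04-fold, 2.52-fold and 5.24-fold. The call at 3 h lay at the fold threshold and was lost in 5 of 27 alternatives, among them quantile normalization and leaving out sham replicate 1 (0.89) or sham replicate 2 (0.99).

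Clec7a, the beta-glucan receptor, also had its highest mean at 72 h. Its brighter probe gave -0.22, 0.07 and 0.53 on the sham arrays, 0.65, 1.71 and 0.83 on the 3 h arrays, 2.46, 2.05 and 2.16 on the 12 h arrays, and 2.71, 2.15 and 2.51 on the 72 h arrays. The sham arrays lay below all others, and the 12 h and 72 h arrays overlapped. The limma fit, with a standard error of 0.29, gave a log2 fold change of 0.94 for 3 h (adjusted p = 0.0483), under the fold threshold, and of 2.10 for 12 h (adjusted p = 0.000808) and 2.33 for 72 h (adjusted p = 0.00061). It was called at 3 h without sham replicate 3 (1.14) or 3 h replicate 1 (1.15). With slide as a block the value at 72 h was 2.43 and its call was lost (adjusted p = 0.0514). A second, dimmer probe of Clec7a, whose 2 ends lay 1645 bases apart in mm9, gave 0.33 at 3 h, 1.08 at 12 h (adjusted p = 0.0154) and 1.14 at 72 h (adjusted p = 0.0129), with its sham and 3 h arrays overlapping. Its call at 72 h was also lost with slide as a block (1.25, adjusted p = 0.217).

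**Figure D2:**
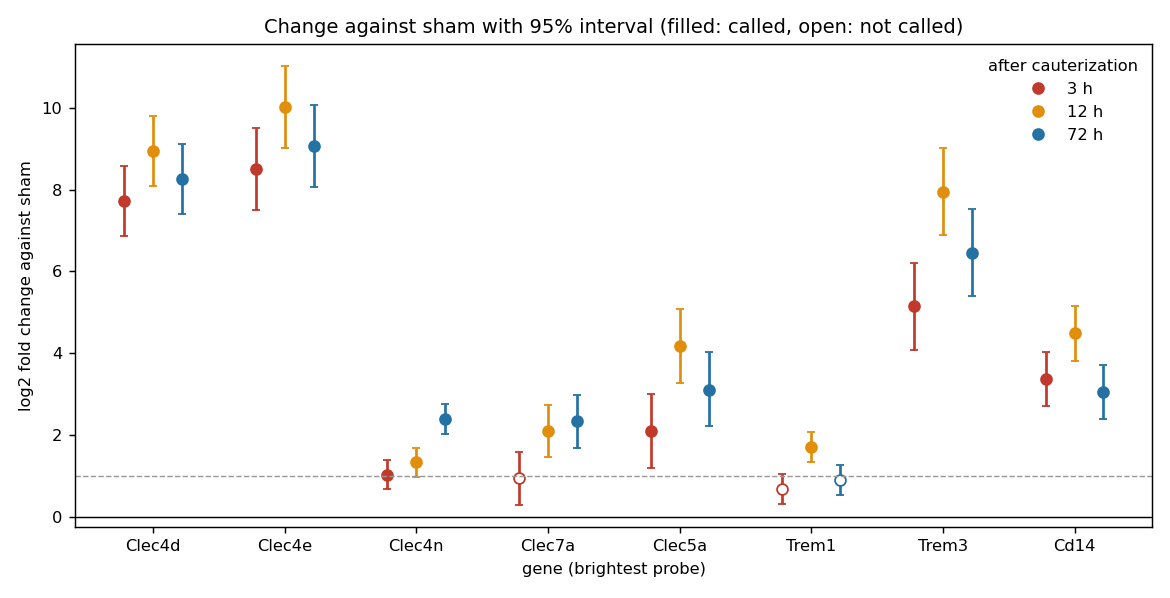
Log2 fold change against sham (vertical axis) of the brightest probe of each gene at each time, with the 95% interval of the limma fit as bars. Filled circles were called and open circles were not, and the dashed line is a fold change of 2. Of the 24 points, 21 are filled, and Clec4n and Clec7a are the genes whose 72 h point is the highest. The values of Clec4e and Trem3 rest on sham arrays that were not well above background.

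The DAP12-coupled lectin Clec5a rose in steps to 12 h. Its brightest probe read -2.13, -2.81 and -2.30 on the sham arrays, -0.97, -0.05 and 0.08 on the 3 h arrays, 2.20, 1.58 and 1.5 on the 12 h arrays, and 0.45, 0.07 and 1.57 on the 72 h arrays. Sham, 3 h and 12 h arrays did not overlap each other, and the 72 h arrays overlapped those of 3 h and 12 h. In the limma fit the log2 fold change against sham, with a standard error of 0.41, was 2.10 for 3 h (adjusted p = 0.00603), 4.17 for 12 h (adjusted p = 0.000117) and 3.11 for 72 h (adjusted p = 0.000773), or 4.29-fold, 18.1-fold and 8.66-fold. Another probe of Clec5a gave log2 fold changes of 1.64, 3.58 and 2.53 at the 3 times and was called at each, although with slide as a block its call at 72 h was lost (2.78, limma adjusted p = 0.0606). The dimmest was well above background on 0 of 3 sham arrays and 1 of 3 arrays at 3 h, and at 12 h it was at least 3.77-fold higher than sham (limma adjusted p = 0.00105). This bound holds only for the background subtraction used here.

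Trem3 was not well above background in sham and was the gene that differed most between 3 h and 12 h. It read -7.11, -7.37 and -6.17 on the sham arrays, -2.23, -1.20 and -1.76 on the 3 h arrays, 1.25, 0.68 and 1.28 on the 12 h arrays, and -0.79, -1.14 and 0.66 on the 72 h arrays. No 2 groups overlapped, although the highest 72 h array lay just under the lowest 12 h array, and the 12 h arrays were highest. Trem3 was at least 9.78-fold higher than sham at 3 h, at least 68.2-fold at 12 h and at least 24.1-fold at 72 h (limma adjusted p = 0.000132, 8.55e-06 and 3.21e-05). With normexp background correction its log2 fold change was 1.11, 3.16 and 1.93 at these times, and it was called at each. These values were smaller than the fitted 5.15, 7.95 and 6.46 and than the log2 bounds of 3.29, 6.09 and 4.59. The bounds thus hold for the background subtraction used here and not under normexp.

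The 2 probes of Trem1, the amplifier of neutrophil and monocyte responses, gave different sizes. The bright probe, with the triplet repeat, read 1.18, 1.07 and 1.11 on the sham arrays, 1.67, 2.08 and 1.66 on the 3 h arrays, 3.07, 2.71 and 2.71 on the 12 h arrays, and 2.02, 1.77 and 2.25 on the 72 h arrays. In the limma fit the log2 fold change against sham, with a standard error of 0.17, was 0.68 for 3 h (adjusted p = 0.0177), 1.71 for 12 h (adjusted p = 0.000117) and 0.89 for 72 h (adjusted p = 0.0047), so that only the 12 h value exceeded a fold of 2. The 72 h value did so without 72 h replicate 2 (1.01). The dim probe, well above background on 0 of 3 sham arrays, read -7.06, -7.21 and -7.02 on the sham arrays, -0.85, 0.61 and -0.40 on the 3 h arrays, 2.0, 1.58 and 1.09 on the 12 h arrays, and 0.03, -0.39 and 0.37 on the 72 h arrays. By this probe Trem1 was at least 28.0-fold higher at 3 h, at least 95.5-fold at 12 h and at least 32.5-fold at 72 h (limma adjusted p = 8.38e-06, 2.27e-06 and 6.26e-06). As for Clec4e and Trem3, these bounds hold only for the background subtraction used here.

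Both Trem1 probes were highest at 12 h and neither overlapped sham at any time, and they differed in sham, where the bright probe was well above background on 3 of 3 arrays. The 8 other probes on the array with a triplet run of 39 bases or more, laid out for other names, were well above background on all 12 arrays. Their sham means lay between 6.61 and 8.56, whereas that of the bright Trem1 probe was 1.12. The change of these 8 probes against sham ranged from -0.04 to 0.20 at 3 h, from -0.49 to -0.11 at 12 h and from -0.78 to -0.27 at 72 h. The part of the repeat in the reading of the bright probe was not tested. With the dimmest probe standing for each gene, a choice made after the values were seen, Trem1 was called at all 3 times and the median of the 8 genes was 3.23, 5.29 and 3.72 with the 4 genes that were dim in sham at their bound (4.17, 6.22 and 4.80 as fitted).

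**Figure D3:**
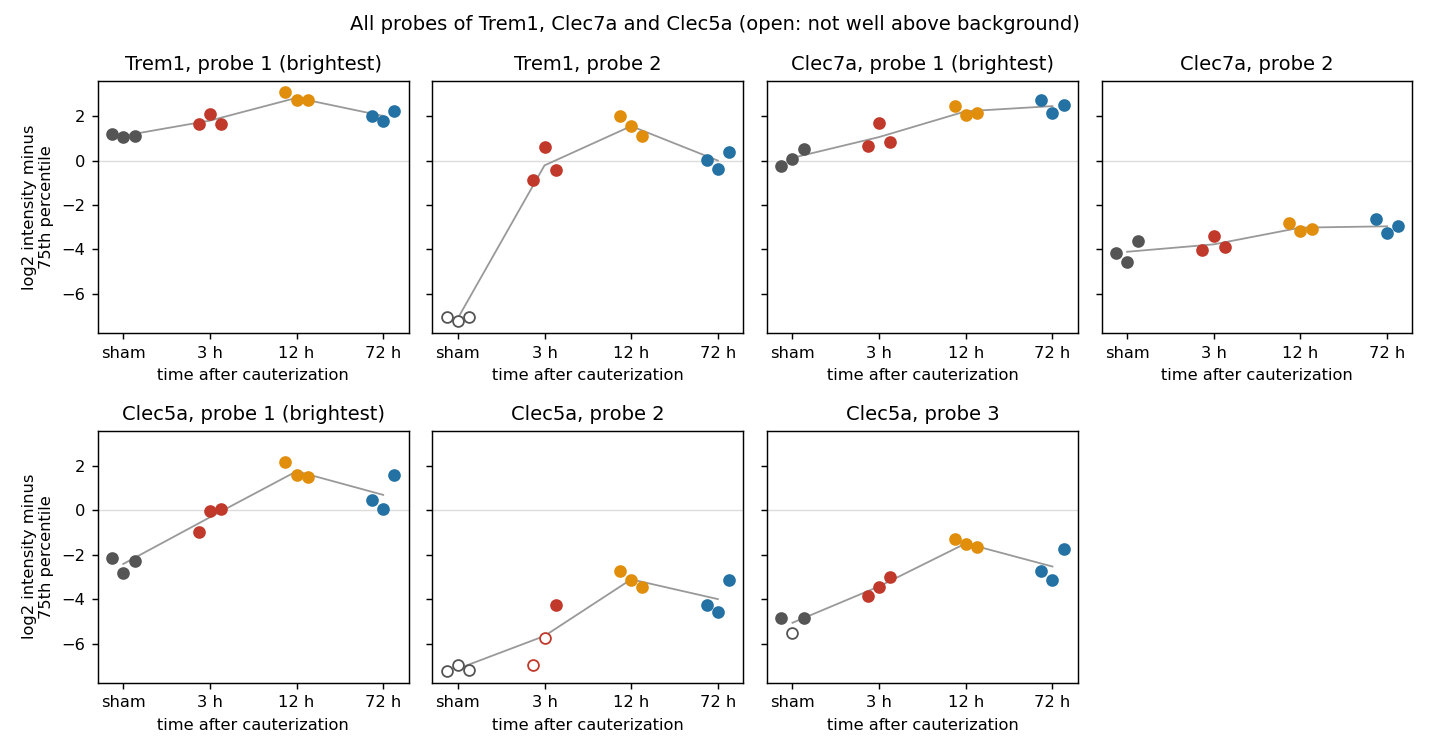
Normalized log2 intensity (vertical axis) of the probes of Trem1, Clec7a and Clec5a on the 12 arrays by group, one panel per probe with a line through the group means. Open circles mark arrays on which the probe was not well above background. The bright Trem1 probe lies between 1.07 and 1.18 in sham while the dim one lies between -7.21 and -7.02, and both peak at 12 h.

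Cd14 was well above background on all arrays and read 1.77, 1.73 and 1.94 on the sham arrays, 4.56, 5.49 and 5.49 on the 3 h arrays, 6.58, 6.26 and 6.06 on the 12 h arrays, and 4.51, 4.63 and 5.44 on the 72 h arrays. The 12 h arrays lay above those of 3 h and 72 h, which overlapped each other. In the limma fit the log2 fold change against sham, with a standard error of 0.30, was 3.37 for 3 h (adjusted p = 0.0001), 4.49 for 12 h (adjusted p = 1.46e-05) and 3.04 for 72 h (adjusted p = 0.000155). This was 10.3-fold, 22.4-fold and 8.24-fold. The second probe of Cd14 gave 3.18, 4.49 and 2.85 on the log2 scale and was called at each time.

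Between 3 h and 12 h 5 of the 8 genes were called higher, where 1.89% of all genes were, and none was called lower, where 1.56% were. These were Trem3 (2.80 on the log2 scale, limma adjusted p = 0.00804), Clec5a (2.07, adjusted p = 0.0142), Clec7a (1.15, adjusted p = 0.037), Cd14 (1.12, adjusted p = 0.0457) and Trem1 by its bright probe (1.02, adjusted p = 0.00654). The calls of Cd14 and Clec7a were lost with slide as a block, at 1.24 (adjusted p = 0.0754) and 1.19 (adjusted p = 0.0871). The count was 1 without 12 h replicate 1, where Trem3 remained. It was 2 without 3 h replicate 1 or 3 h replicate 3, and 3 without sham replicate 2, 12 h replicate 2 or 12 h replicate 3.

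From 12 h to 72 h Clec4n was called higher (1.06, limma adjusted p = 0.00214) and Cd14 lower (-1.44, adjusted p = 0.00909), against 4.33% and 3.19% of all genes. The dim probe of Trem1 also fell (-1.55, adjusted p = 0.0151), a call lost with slide as a block (-1.08, adjusted p = 0.252), whereas the bright probe changed by -0.81 (adjusted p = 0.00855), under the fold threshold. Trem3 differed by -1.5 (adjusted p = 0.0563), Clec5a by -1.06 (adjusted p = 0.103), Clec4e by -0.96 (adjusted p = 0.176) and Clec4d by -0.67 (adjusted p = 0.271), and did not pass, though Trem3 was called in 7 of 27 alternatives. Clec7a differed by 0.24 (95% interval -0.41 to 0.88). With slide as a block the call of Cd14 was lost (-1.20, adjusted p = 0.166) and that of Clec4n held (1.02, adjusted p = 0.0488), but that of Clec4n was lost without 12 h replicate 1 (0.97).

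Between 3 h and 72 h 2 genes were called higher, Clec7a (1.39, limma adjusted p = 0.00559) and Clec4n (1.36, adjusted p = 0.000318), where 6.19% of all genes were. With slide as a block neither was called, at 1.49 for Clec7a (adjusted p = 0.119) and 1.31 for Clec4n (adjusted p = 0.0551). Without 72 h replicate 2 the count was 4, with Clec5a and Trem3 added. Trem3 (1.30, adjusted p = 0.0544 in limma) was called in 6 of 26 alternatives. Clec4d differed by 0.54 (95% interval -0.31 to 1.40), Clec4e by 0.56 (-0.45 to 1.56), Trem1 by 0.21 (-0.16 to 0.58) and Cd14 by -0.32 (-0.99 to 0.34) between these times. In at least 1 of these 3 contrasts between times 6 of the 8 genes were called, as were 15.2% of all genes. Whether the course of Clec4n and Clec7a differed from that of the other genes was not tested.

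Within groups the genes tended to be high or low on the same array. At 3 h replicate 1 was the lowest of the 3 arrays for 7 of the 8 genes, Trem1 being the exception. At 72 h replicate 2 was the lowest for 7 genes and replicate 3 the highest for 7. The summed intensity of 12 neutrophil markers, in multiples of the 75th percentile, was also lowest on 3 h replicate 1 (360.0, against 599 and 495), lowest on 72 h replicate 2 (350.0) and highest on 72 h replicate 3 (636). The sum of 12 monocyte and macrophage markers was also lowest on 3 h replicate 1 (274) and 72 h replicate 2 (418). It was highest on 72 h replicate 3 (456). At 3 h the highest neutrophil sum was on replicate 2 and the highest monocyte and macrophage sum, 414, on replicate 3. The highest 3 h array was replicate 2 for 6 of the genes and replicate 3 for 2. At 12 h replicate 1 was the highest array for 6 genes, and its neutrophil sum of 862 and monocyte and macrophage sum of 415 were the highest of that group. The lowest 12 h array was replicate 2 for 4 genes, replicate 3 for 3 and replicate 1 for 1. Both sums were lowest on replicate 3 (823 and 373). The share of this spread that went with the content of either cell type was not tested. How many of all genes followed the same order of arrays was not computed. A shift of whole arrays therefore cannot be told apart from a trait of these genes.

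Marker lists of cell types moved between the groups beside the receptors. For the counts in this and the following marker paragraphs, the share of all genes called higher was 3.26%, 4.10% and 4.55% in time order. The share called lower was 4.11%, 4.96% and 4.30%. Of 12 neutrophil markers, 7 were called higher than sham at 3 h, 9 at 12 h and 7 at 72 h, and their summed intensity was 81.5 to 92.6 in sham, 360.0 to 599 at 3 h, 823 to 862 at 12 h and 350.0 to 636 at 72 h. Ly6g, a surface marker of neutrophils, rose by 3.61 at 3 h and 3.65 at 12 h and was at -0.08 against sham at 72 h. Cxcr2, Ngp and Ltf were not well above background in sham, and Cxcr2, a chemokine receptor of neutrophils, was at least 61.3-fold higher at 3 h, at least 221-fold at 12 h and at least 125-fold at 72 h. The bounds of Cxcr2 hold only for the background subtraction used here. Clec4d, Clec4e, Clec5a, Trem1, Trem3 and Cd14 had, like the neutrophil sum, their highest group mean at 12 h.

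Of 12 monocyte and macrophage markers, 1 was called higher and 1 lower at 3 h, 5 higher and 1 lower at 12 h, and 9 higher at 72 h. The lower gene was Cx3cr1, the fractalkine receptor of resident and patrolling phagocytes, at -2.79 and -1.21. The summed intensity of the 12 markers was 170.0 to 218 in sham, 274 to 414 at 3 h, 373 to 415 at 12 h and 418 to 456 at 72 h, and its 72 h arrays were the highest, as were those of Clec4n. A linear sum is weighted toward the brightest genes, and the list's median log2 fold change was only 0.21 at 3 h, 0.48 at 12 h and 1.63 at 72 h. Ccr2, the receptor of inflammatory monocytes, rose by 2.47 at 12 h and 3.38 at 72 h, and Fcgr1 by 2.55 and 3.20. The part of cell content in the receptor values was not tested.

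Other lists moved too. Of 5 smooth muscle markers 0 were called at 3 h, 5 were lower at 12 h and 4 at 72 h. These had a summed intensity of 489 to 516 in sham, 266 to 324 at 3 h, 153 to 249 at 12 h and 181 to 238 at 72 h. All 3 red blood cell markers were higher at 3 h and none at the later times, with sums of 7.46 to 16.4 in sham and 58.5 to 273 at 3 h, the highest being 3 h replicate 1, then 25.7 to 42.5 at 12 h and 4.32 to 19.6 at 72 h. Of 8 epithelial markers 1 was lower at 12 h (Lgr5) and 1 at 72 h (Cdx2). Of 6 eosinophil and mast cell markers 1 was higher at 72 h (Cpa3), and no marker of B cells (4 genes), T cells (4 measured genes) or dendritic cells (6) was called against sham. In lists this short, a count of 0 or 1 cannot be told apart from the share of all genes called. The B cell median was -1.75 at 3 h and -1.16 at 72 h on the log2 scale, and its summed intensity ranged from 13.7 to 24.4 in sham and from 1.12 to 21.1 at 3 h, the lowest being 3 h replicate 1. All 8 epithelial markers, which check the labelled tissue, were above background on at least 1 sham array, and their summed intensity was 1050 to 1140 in sham, 1270 to 1410 at 3 h, 1070 to 1290 at 12 h and 651 to 860.0 at 72 h.

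**Figure D4:**
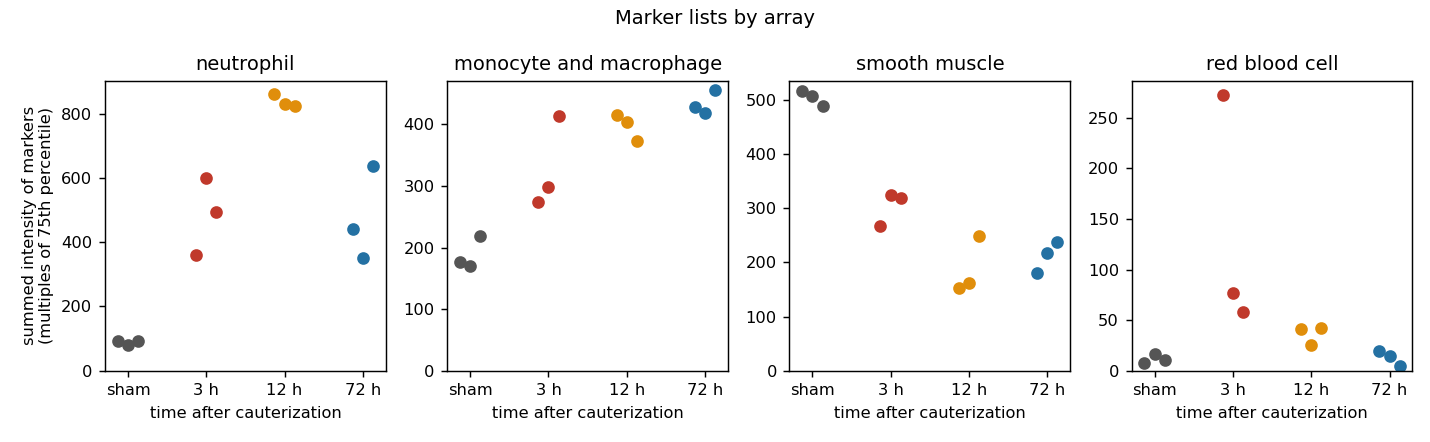
Summed linear intensity of the markers of 4 cell types (vertical axes, multiples of the array's 75th percentile, each starting at 0) on the 12 arrays by group. The neutrophil sum is highest at 12 h (823 to 862), the monocyte and macrophage sum at 72 h (418 to 456), the smooth muscle sum in sham, and the red blood cell sum at 3 h.

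Of 16 adaptors and kinases through which these receptors signal, 3 were called higher at 3 h, 8 at 12 h and 6 at 72 h, and Vav3 alone was lower, at 12 h (-1.26, limma adjusted p = 0.00104). The list's median was 0.34, 0.92 and 0.55 on the log2 scale. Fcer1g, the partner of Clec4d, Clec4e and Clec4n, rose by 1.24, 3.45 and 3.02 at the 3 times. Tyrobp, which encodes DAP12, changed by 0.97 at 3 h and rose by 2.68 at 12 h (adjusted p = 8.55e-06) and 3.03 at 72 h. The Src family kinase Fgr (1.69, 3.4 and 2.76) rose at each time.

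Syk was called at 12 h only (1.24, limma adjusted p = 0.00048), reading 0.82 at 3 h and 0.52 at 72 h. Card9, the adaptor below Syk, was well above background on 0 arrays of each group, so that no change of it could be read. Its partners Bcl10 (0.99, 0.75 and 0.23) and Malt1 (0.32, 0.57 and 0.24) did not pass both thresholds.

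Around Cd14, 3 of 13 genes of the TLR4 and TLR2 complex were called higher at 3 h, 6 at 12 h and 3 at 72 h. Of all genes 3.26%, 4.10% and 4.55% were called higher. None of the 13 was lower, where 4.11%, 4.96% and 4.30% of all genes were. The median was 0.26, 0.48 and 0.48. Irak3, an inhibitor of this pathway, rose by 1.85, 3.48 and 2.56. Lbp, which delivers lipopolysaccharide to CD14, rose by 1.93 at 12 h and 2.92 at 72 h (limma adjusted p = 4.16e-05). Myd88 (1.05 and 1.22) and Tirap (1.08 and 1.26) were called at 3 h and 12 h, Tlr2 at 12 h (1.69), and Tlr4 at 12 h (1.46) and 72 h (1.05). Ly96, which encodes MD-2, gave -0.16, -0.06 and -0.98, the last under the fold threshold although its limma adjusted p was 0.00152.

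Of 5 host ligands, 2 were called higher at 3 h, 3 at 12 h and 2 at 72 h, beside 3.26%, 4.10% and 4.55% of all genes. The median log2 fold change of the ligands was 0.90, 1.62 and 0.85. S100a8 (10.79, 12.33 and 10.96) and S100a9 (10.06, 10.85 and 10.07), which encode the subunits of calprotectin, were called at each time and stand in the neutrophil list too, S100a8 being well above background on 2 of 3 sham arrays. Pglyrp1, a ligand of TREM-1, was called at 12 h (1.62, limma adjusted p = 0.00323). Sap130, a nuclear protein that Mincle senses when released, gave -0.14, -0.02 and -0.17, and Hmgb1 0.18, 0.17 and -0.05, on the log2 scale of RNA.

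Among 19 related C-type lectins and TREM family receptors, 2 were called higher at 3 h, 6 at 12 h and 9 at 72 h. Their median log2 fold change was 0.22, 0.33 and 1.28. Olr1, the oxidized lipoprotein receptor beside Clec7a, rose by 3.25 at 3 h, 3.31 at 12 h and 2.37 at 72 h, and Clec1b, the platelet receptor CLEC-2, by 1.61 at 3 h and 1.11 at 72 h, where its probe was well above background on 2 of 3 sham arrays. Treml4 rose by 4.22 at 12 h and 3.12 at 72 h. Trem2, a receptor of tissue macrophages, gave -0.89 and -0.93 at 3 h and 12 h and rose by 3.76 at 72 h (limma adjusted p = 3.07e-05). The lectins Clec4a1 (2.21 and 3.20), Clec4a3 (2.29 and 3.48) and Clec4b1 (1.95 and 2.72), near Clec4n on chromosome 6, were called at 12 h and 72 h. Clec10a, a macrophage galactose lectin, was the 1 gene called lower, at 12 h (-2.68, adjusted p = 0.0082), a count near the share of 4.96% of all genes.

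Inhibitory receptors of myeloid cells rose as well, 2 of 8 at 3 h, 5 at 12 h and 6 at 72 h. Of all genes 3.26%, 4.10% and 4.55% were called higher. The median log2 fold change of the 8 inhibitory receptors was 0.51, 1.77 and 2.68. Lilrb4 rose by 3.98, 5.74 and 4.57, Cd33 by 2.30, 3.31 and 2.82, and Pilra by 4.68 at 12 h and 3.80 at 72 h. Clec12a and Clec4a2 belong to both this list and the preceding one, and Clec12a was called at 12 h (1.04) and 72 h (2.88).

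Genes known to be induced through Syk and CARD9 or through TLR4 were called higher in 14 of 14 cases at 3 h, 13 at 12 h and 11 at 72 h. Their median log2 fold change was 3.87, 4.71 and 3.93, or 3.21, 4.71 and 3.65 with the genes that were dim in sham at their bound. The neutrophil attractant Cxcl2 was not well above background in sham and was at least 295-fold higher at 3 h, at least 927-fold at 12 h and at least 278-fold at 72 h. Cxcl1 rose by 8.58, 7.96 and 7.16 on the log2 scale, Il6 by 7.61, 6.75 and 7.20 and Il1b by 6.74, 8.35 and 7.36. Csf3 was at least 75.6-fold higher at 12 h. The bounds of Cxcl2 and Csf3 hold only for the background subtraction used here. Il12b rose by 1.62 at 3 h and gave 0.11 at 12 h and -0.08 at 72 h. Over the alternatives run, the count of these genes called higher at 3 h ranged from 9 to 14. Whether the receptors described here induced any of them was not tested.

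**Figure D5:**
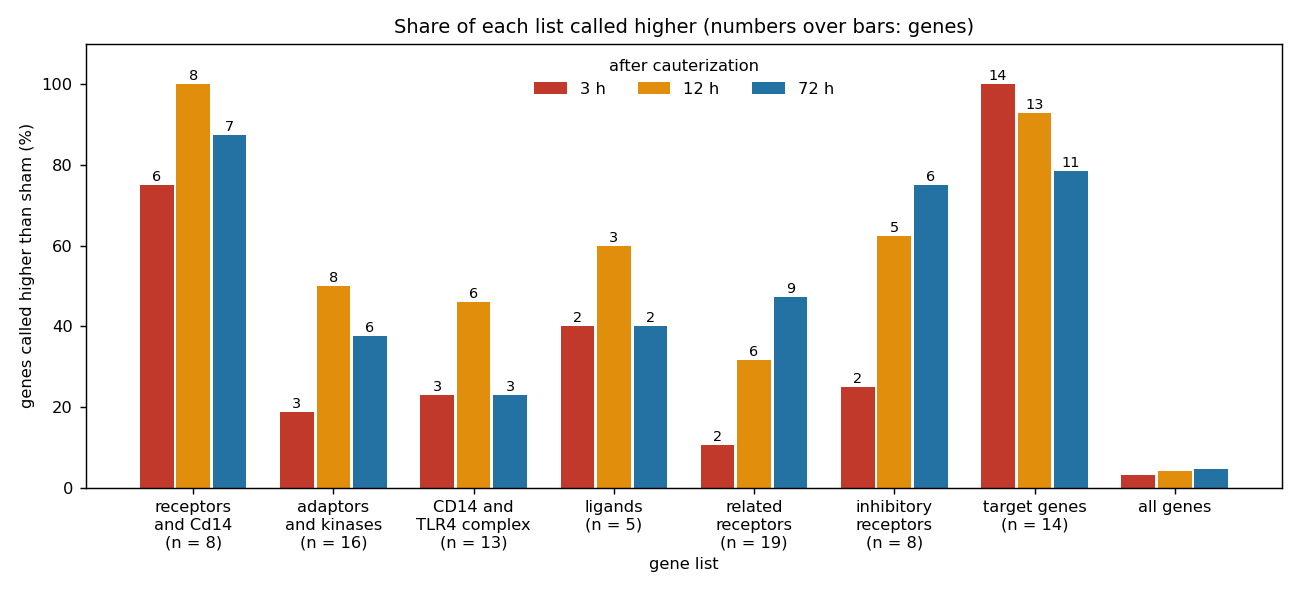
Share of each gene list called higher than sham (vertical axis, percent of the list's genes) at each time, with the number of genes over each bar and the list size under it. All 8 genes of the group are called at 12 h and 14 of 14 target genes at 3 h, and the share over all genes is 3.26%, 4.10% and 4.55%.

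The genes whose course was most like that of each receptor were found as those with the smallest root mean square (RMS) difference in log2 values over the 12 arrays, each gene centred on its own mean, among 17431 other genes well above background on at least 6 arrays. These are descriptions, with the groups and arrays shared by all genes. Nearest to Clec4d were Hdc, the enzyme of histamine synthesis (0.43), Il1b (0.45) and Cxcl5 (0.45), where the spread of Clec4d itself was 3.65. Clec4e was followed by Cxcl2 (0.46), Cxcl3 (0.48) and Gm10872 (0.65), with an own spread of 4.05. Clec4e and Cxcl2 were not well above background on any sham array, and Cxcl3 and Gm10872 had sham means of -7.34 and -6.71. This likeness therefore rests in part on background readings in sham, as it does for Trem3 and the dim probe of Trem1. Hdc (0.26) and Il1b (0.36) were also nearest to the dim probe of Trem1, which had a spread of 3.36, whereas the bright probe had other neighbors, St3gal6 (0.15), Rab8b (0.17) and Eif4ebp1 (0.19), at a spread of 0.63.

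Cd14 was nearest to Plek (0.19), Samsn1 (0.25) and Srgn (0.31), against a spread of 1.69. Clec5a was nearest to Slc15a3 (0.24), Ptafr, the receptor of platelet-activating factor (0.27), and F630028O10Rik (0.27), and Trem3 to Gm2511 (0.51), Il1a (0.55) and Gpr84 (0.57). Clec4n lay nearest to Lama1, a laminin chain (0.22), Tspan4 (0.22) and Cd302 (0.24) at a spread of 0.87, and Clec7a to genes that included Apobr (0.23) and Fxyd5 (0.25) at a spread of 0.99.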

How the data were processed

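RNA of 12 mouse cecum samples was hybridised to Agilent SurePrint G3 Mouse arrays (GE v2, 8x60K, 1 colour). The authors deposited the Feature Extraction 11.5.1.1 output of each array, with a background-subtracted intensity per spot on a linear scale, not normalized between arrays. A second deposited file, used as an alternative, holds the authors' log2 values, which the methods describe as 75th percentile scaled in GeneSpring and whose values are centred per probe on the median. After the same centring it had a Pearson correlation of 0.99997 with the recomputed values across 56605 probes and 12 arrays, with probes not being independent replicates.

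From the scanner output, log2 intensity was computed and each array's 75th percentile over non-control probes subtracted. Between 53 and 152 outlier spots per array and all control spots were left out, and replicate spots were averaged. The 4 group means were fitted jointly on the 12 arrays in limma 3.58.1 (lmFit, contrasts.fit, eBayes) in R 4.3.3, with Benjamini-Hochberg adjustment over 56605 probes, and 37074 gene names were each represented by their brightest probe. Gene names come from the array design. Where no sham array had a probe well above background, the fold change is given as a lower bound, which holds for the deposited background-subtracted intensities. Python 3.11.15, pandas 2.3.3 and numpy 2.4.6 were used for the tables. The 3 arrays per group limit the precision.

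The genes, the lists (adaptors and kinases, CD14 and TLR4 complex, ligands, related receptors, inhibitory receptors, target genes, and cell type markers) and the tests were chosen with earlier results of these data known. The rule for naming was all 8 genes with every probe, for each of them the 3 most alike genes, and of each other list up to 3 called genes per direction and time with the largest change and those called against the list. Other list genes were named after their values were seen, for their place in the pathway (among them Syk, Card9, Bcl10, Malt1, Ly96, Sap130 and Hmgb1), and some genes under the rule are not reported here. Alternatives were quantile normalization, the percentile taken over probes above background, normexp with an offset of 50, the log2 values of the authors, dim probes filtered out or set to a floor, outlier spots included, slide or replicate number as a block, single slides, eBayes with trend and robust, 2 groups alone, averaging the probes of a gene, no fold change threshold, leaving out each array and, added after the data were seen, the dimmest probe of a gene.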

Additional observations from a re-analysis of the deposited data

Results flagged for a closer look

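The change against sham differed between time points for 6 of the 8 genes, by the contrast between the times within the same limma fit, where 15.2% of all genes were called in at least 1 of these contrasts. From 3 h to 12 h the difference was 2.80 on the log2 scale for Trem3, 2.07 for Clec5a, 1.15 for Clec7a, 1.12 for Cd14 and 1.02 for Trem1. Of 27 alternatives, that of Trem3 was lost in 0, that of Clec5a in 1, that of Trem1 in 3, that of Clec7a in 13 and that of Cd14 in 14. From 12 h to 72 h the difference was 1.06 for Clec4n, lost in 2 of 27 alternatives, and -1.44 for Cd14, lost in 2. From 3 h to 72 h it was 1.39 for Clec7a, lost in 2 of 26 alternatives, and 1.36 for Clec4n, lost in 1. Slide as a block lost the calls of Clec7a and Clec4n from 3 h to 72 h and of Cd14 from 12 h to 72 h. The slide moved with the 72 h group, and its part in these differences was not tested beyond the block. Groups of 3 samples were too small to look for single arrays that stand apart.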

How the results depend on the processing

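The counts of genes called higher than sham stayed within 5 to 8 at 3 h, at 8 at 12 h and within 6 to 8 at 72 h over the alternatives run. In time order, the median log2 fold change moved to 1.18, 3.08 and 2.23 with normexp and to 4.17, 6.22 and 4.80 with the dimmest probe (3.23, 5.29 and 3.72 with genes dim in sham at their bound), and the mean of all probes gave 3.53 and 4.83 for 3 h and 12 h. Between 3 h and 12 h the count of 5 was 3 with slide as a block, on the first slide alone, with the replicate block and with 2 groups alone, 6 with the filter and with the floor, and 7 with normexp and with trend and robust, and ranged from 1 to 5 when single arrays were left out. From 12 h to 72 h the count called lower, 1 in the fit reported, was 2 with normexp, the filter, the floor, the replicate block, trend and robust, the mean of all probes, no fold threshold and the dimmest probe, 0 with slide as a block and 0 on the second slide alone, where the 12 h group held 1 array, assumed to vary like those of 72 h, and ranged from 1 to 3 when single arrays were left out. The count called higher was 0 on the second slide alone and ranged from 0 to 1 when single arrays were left out. Between 3 h and 72 h the count of 2 was 0 with slide as a block and ranged from 2 to 4 when single arrays were left out. The causes were not tested, except that single slides and left-out arrays hold fewer samples. No pairing by replicate number was seen. Deviations from the group means correlated by -0.404 to 0.264 over 18 same-numbered pairs, with 6 over 0.1. Over 36 pairs with different numbers the range was -0.296 to 0.385, with 12 over 0.1. Groups of 3 arrays are too small for this to decide whether a batch was shared. For genes that were dim in sham, the background of the array limits what can be said of the fold.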
